A study of Homo sapiens with 16 samples.

Results

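The intervals of TOP2B occupancy on human chromosome 11 were taken from the 4 TOP2B peak lists of the study as every entry whose chromosome field is 11. They numbered 2566 of the 44922 intervals in the 4 lists together. Each was placed by its midpoint in windows of 5 Mb on GRCh37, and the window from 69 to 70 Mb, which holds the CCND1 region, was examined separately. PC9, the cell line used, is a human lung adenocarcinoma line. TOP2B was mapped by CUT&RUN: a nuclease tethered to the antibody frees the DNA near the bound protein, and the freed fragments are sequenced. The 4 conditions were METTL7A knockout cells treated with osimertinib, wild-type cells treated with osimertinib, untreated METTL7A knockout cells and untreated wild-type cells. Osimertinib, an inhibitor of mutant EGFR, was escalated from 100 nM in the treated cells, over 6 to 8 weeks. Each condition had 2 replicate TOP2B libraries and 1 deposited list made from them, so a condition has 1 list without a replicate, and no test between conditions was possible. The labels do not say whether the knockout line was a single clone or whether the replicates were separate cultures. The lists hold no measure of METTL7A itself, so the genotypes are as labelled.

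TOP2B is the beta isoform of DNA topoisomerase II. It cuts both strands of a DNA duplex, passes another duplex through the gap and reseals it, which relieves twisting and tangling in transcribed and looped chromatin. CCND1 encodes cyclin D1, the partner of CDK4 and CDK6 that drives cells from G1 into S phase, and the segment of the long arm that carries it is recurrently amplified in human cancers. In the RefSeq annotation of GRCh38.p14, used here for gene names and their order and not for positions, the protein-coding genes next to CCND1 include MYEOV on 1 side and LTO1, FGF19, FGF4, FGF3 and ANO1 on the other. METTL7A belongs to the methyltransferase-like gene family.

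Chromosome 11 held 305 of 7493 intervals in treated knockout, 601 of 9655 in treated wild type, 688 of 12493 in untreated knockout and 972 of 15281 in untreated wild type. As shares of each list these were 4.07% in treated knockout (95% Clopper-Pearson interval 3.63 to 4.54), 6.22% in treated wild type (5.75 to 6.73), 5.51% in untreated knockout (5.11 to 5.92) and 6.36% in untreated wild type (5.98 to 6.76). All intervals of this kind cover counting error only, and neighbouring peaks are not independent. By number of intervals chromosome 11 ranked 9 of 24 chromosomes in treated knockout, 5 in treated wild type, 8 in untreated knockout and 6 in untreated wild type. The treated knockout list thus had the lowest share of the 4.

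The ratio of list shares, with an exact conditional 95% interval, was 0.654 (0.568 to 0.752) for treated knockout over treated wild type and 0.866 (0.784 to 0.956) for untreated knockout over untreated wild type. It was 0.979 (0.882 to 1.08) for treated over untreated wild type and 0.739 (0.644 to 0.847) for treated over untreated knockout. These ratios depend on a few dense regions of other chromosomes, because a share is relative to the whole list. The 20 densest windows of 5 Mb, none of them on chromosome 11, held 55.3% of the treated knockout list, 19.6% of the treated wild-type list, 48.6% of the untreated knockout list and 39.6% of the untreated wild-type list. Without those windows the ratio turned to 1.18 (1.02 to 1.35) for treated knockout over treated wild type. It was 1.02 (0.922 to 1.12) for untreated knockout over untreated wild type. In the same setting it was 0.735 (0.663 to 0.815) for treated over untreated wild type and 0.849 (0.74 to 0.973) for treated over untreated knockout. Under treatment the direction between knockout and wild type thus depended on those windows. In untreated cells no difference was detectable without them. Treated over untreated knockout stayed below 1 in each of the 5 alternatives run, between 0.524 and 0.936, and with lists of equal length its interval reached 1 (0.798 to 1.1).

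**Figure D1:**
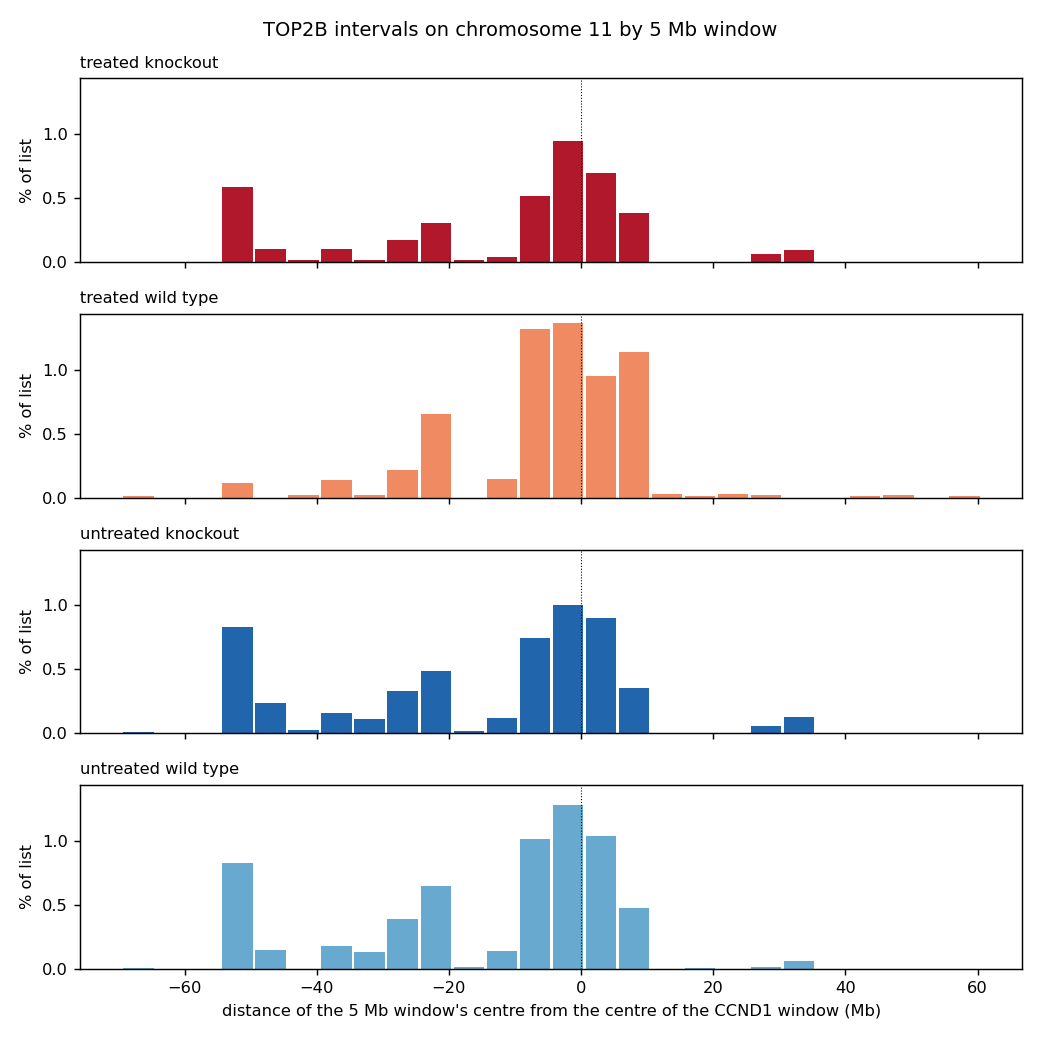
Share of each TOP2B list, in percent, that fell in each 5 Mb window of chromosome 11, plotted against the distance in Mb of the window's centre from the centre of the CCND1 window (dotted line), with 1 panel for each condition. A broad group of windows around the CCND1 window is present in the 4 lists, whereas the tall bar more than 50 Mb to its left is low in treated wild type, at 11 intervals.

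The intervals lay in a few blocks and left most of the distal long arm empty. The window from 65 to 70 Mb held the most intervals of any 5 Mb window on chromosome 11 in the 4 lists, with 71 in treated knockout, 132 in treated wild type, 125 in untreated knockout and 196 in untreated wild type. In treated knockout the next were 70 to 75 Mb with 52 and 15 to 20 Mb with 44. In treated wild type they were 60 to 65 Mb with 127 and 75 to 80 Mb with 110. In untreated knockout they were 70 to 75 Mb with 112 and 15 to 20 Mb with 104, and in untreated wild type 70 to 75 Mb with 158 and 60 to 65 Mb with 155. The 3 fullest windows together held 54.8% of the chromosome's intervals in treated knockout, 61.4% in treated wild type, 49.6% in untreated knockout and 52.4% in untreated wild type. The treated wild-type list was thus the most concentrated of the 4, and the short-arm window from 15 to 20 Mb was not among its 3 fullest.

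Outside the blocks the lists were nearly empty. The first 16 Mb held 0 intervals in treated knockout and 1 in each of the other 3 lists. From 105 Mb to the end there were 0 intervals in treated knockout, 4 in treated wild type, 0 in untreated knockout and 0 in untreated wild type. Between 50 and 52 Mb there was 1 interval in treated knockout, 0 in treated wild type, 2 in untreated knockout and 2 in untreated wild type. The treated knockout interval there, at 51572201 to 51574350, belonged to a peak whose maximum was 1.63 times the list median, and it overlapped intervals at 2 times the median in untreated knockout and 1.75 times in untreated wild type. An empty window means that no peak entered the list, not that signal was measured as zero.

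The short-arm block between 17 and 22 Mb was nearly empty in treated wild type. Its edges, like those of the other blocks below, were set after the counts had been seen, so the values describe it and test nothing. The block held 51 intervals in treated knockout, 11 in treated wild type, 131 in untreated knockout and 148 in untreated wild type. As a share of the chromosome 11 intervals this was 16.7% in treated knockout (12.7 to 21.4), 1.83% in treated wild type (0.917 to 3.25), 19% in untreated knockout (16.2 to 22.2) and 15.2% in untreated wild type (13 to 17.6). Treated wild type was thus far below the other 3 lists, whose counting intervals overlapped. The ratio of list shares was 0.118 (0.0575 to 0.217) for treated over untreated wild type and 0.649 (0.46 to 0.904) for treated over untreated knockout. As a share of the chromosome's own intervals the knockout ratio was 0.878 (0.623 to 1.22). Knockout over wild type was 5.97 (3.07 to 12.7) under treatment and 1.08 (0.849 to 1.38) without it. Within the block, 19 to 20 Mb held 25 intervals in treated knockout, 4 in treated wild type, 60 in untreated knockout and 78 in untreated wild type, and 20 to 21 Mb held 7 intervals in treated knockout, 0 in treated wild type, 24 in untreated knockout and 22 in untreated wild type. Of the 11 treated wild-type intervals in the block, 10 overlapped an untreated wild-type interval (90.9%, 58.7 to 99.8). That share was 34.8% on the whole of chromosome 11 and 28.7% over the whole list. Of the 148 untreated wild-type intervals in the block, 9 overlapped a treated wild-type one (6.08%, 2.82 to 11.2), against 19.2% on chromosome 11 and 14.8% over the whole list. With only 11 treated wild-type intervals there, few of the 148 could overlap one, so this low share adds little to the counts. The untreated wild-type list was dense in the block, at 29.6 intervals per Mb with a median width of 2725 bp. How far this raised the 90.9% was not tested.

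The block on the long arm that holds the CCND1 window was present in the 4 lists but ended farther out in treated wild type. Neighbouring intervals were joined into a run where the gap between them was at most 1 Mb, a rule chosen after the positions had been seen. The run that holds the CCND1 window spanned 63791601 to 77280850 in treated knockout with 181 intervals, 60514001 to 80212400 in treated wild type with 463, 60576451 to 77280650 in untreated knockout with 373 and 60514901 to 77124500 in untreated wild type with 581. The run thus ended at 77.1 to 77.3 Mb in 3 lists and at 80.2 Mb in treated wild type. Its later start in treated knockout depends on the rule, since the gap before it was 1.01 Mb and with gaps of up to 2 Mb it began at 60.5 Mb. With gaps of at most 0.5 Mb the run ended at 71.2 Mb in treated wild type, before the end in the other 3 lists, so the counts beyond 77 Mb are given next. After its end, the next interval was 19.6 Mb away in treated knockout, 1.49 Mb away in untreated knockout and 9.08 Mb away in untreated wild type.

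Between 77 and 81 Mb there was 1 interval in treated knockout, 57 in treated wild type, 2 in untreated knockout and 1 in untreated wild type. The share ratio there was 0.0226 (0.000563 to 0.131) for treated knockout over treated wild type and 90.2 (15.6 to 3625) for treated over untreated wild type, and both rest on a single interval in 1 of the 2 lists. In width and height the 57 treated wild-type intervals were close to the rest of the block. Their median width was 1250 bp, against 1200 bp between 61 and 77 Mb in the same list, and their median maximum was 1.09 times the list median, against 1 times between 61 and 77 Mb. None of the 57 overlapped an untreated wild-type or a treated knockout interval. Each of those lists held only 1 interval there, so almost no overlap was possible and the 0 adds nothing to the counts. Over the whole treated wild-type list, 28.7% of intervals overlapped an untreated wild-type interval and 10.5% a treated knockout interval. By 1 Mb window the treated wild-type counts were 20 at 77 to 78 Mb, 21 at 78 to 79 Mb, 14 at 79 to 80 Mb and 2 at 80 to 81 Mb.

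Within the long-arm block, treated wild type was also high at 61 to 62 Mb. This window held 0 intervals in treated knockout, 37 in treated wild type, 4 in untreated knockout and 14 in untreated wild type. The ratio of list shares was 4.18 (2.21 to 8.38) for treated over untreated wild type, and for treated knockout over treated wild type the exact upper bound was 0.135. At 63 to 64 Mb the treated knockout was low, with 5 intervals, against 28 in treated wild type, 24 in untreated knockout and 39 in untreated wild type. Over the whole of 61 to 77 Mb the counts were 185 in treated knockout, 393 in treated wild type, 358 in untreated knockout and 553 in untreated wild type. As a share of the chromosome's own intervals they were 60.7% in treated knockout (54.9 to 66.2), 65.4% in treated wild type (61.4 to 69.2), 52% in untreated knockout (48.2 to 55.8) and 56.9% in untreated wild type (53.7 to 60). The treated wild-type share lay above both untreated shares beyond their counting intervals, and the treated knockout interval overlapped those of the other 3 lists.

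The window from 69 to 70 Mb held 18 intervals in treated knockout, 23 in treated wild type, 36 in untreated knockout and 43 in untreated wild type. As list shares these were 0.24% in treated knockout (0.142 to 0.379), 0.238% in treated wild type (0.151 to 0.357), 0.288% in untreated knockout (0.202 to 0.399) and 0.281% in untreated wild type (0.204 to 0.379). The 4 counting intervals overlapped. The ratio of list shares was 1.01 (0.513 to 1.95) for treated knockout over treated wild type, 1.02 (0.639 to 1.63) for untreated knockout over untreated wild type, 0.847 (0.487 to 1.44) for treated over untreated wild type and 0.834 (0.446 to 1.51) for treated over untreated knockout. A difference was not detectable at these counts, whose intervals together ran from 0.446 to 1.95. Among the 1 Mb windows of chromosome 11 with an interval, this one ranked 4 of 42 by count in treated knockout, 13 of 50 in treated wild type, 3 of 53 in untreated knockout and 8 of 49 in untreated wild type.

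**Figure D2:**
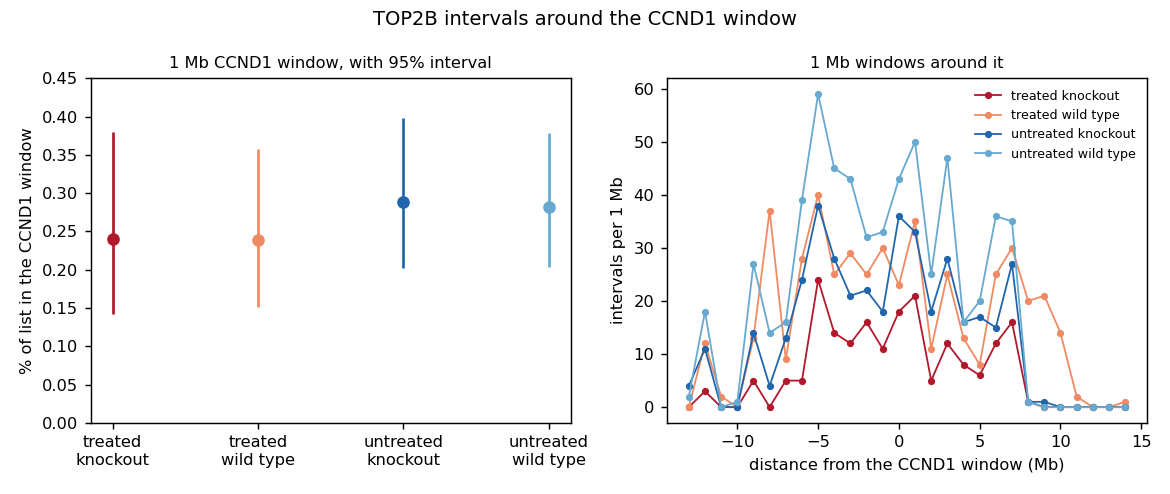
Left, share of each TOP2B list in percent that fell in the 1 Mb CCND1 window, with its 95% Clopper-Pearson interval, for the 4 conditions. Right, number of intervals in each 1 Mb window against its distance in Mb from the CCND1 window; between 8 and 10 Mb to the right, treated wild type had 20, 21 and 14 intervals, against at most 1 in each of the other lists.

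The intervals of the CCND1 window were spread over it rather than stacked at 1 place. Of its 10 bins of 100 kb, 6 held an interval in treated knockout and 10 held one in each of the other 3 lists, and no bin held more than 6. Summed lengths were 18.6 kb in treated knockout, 26.4 kb in treated wild type, 56.3 kb in untreated knockout and 137 kb in untreated wild type. The interval with the highest maximum in treated wild type lay at 69805201 to 69806300 and belonged to a peak of 1.55 times the list median, whose highest point lay outside it at 69796151 to 69796200. Its region was also occupied in untreated knockout. The position from 69704351 to 69709150 was occupied in the 4 lists, with maxima of 1.12 times the list median in treated knockout, 1 times in treated wild type, 1.4 times in untreated knockout and 0.917 times in untreated wild type. The longest interval of the window, at 69202351 to 69213650 in untreated wild type, was 11300 bp wide and overlapped no interval of the other lists.

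To describe change along the chromosome, 5 Mb windows were taken where at least 1 of the compared lists held 20 intervals or more. A window passed where its list shares differed 2-fold or more, after 0.5 was added to both counts. Between treated knockout and treated wild type, 4 of 7 windows on chromosome 11 passed, against 75.2% of the 137 windows examined in the genome. One was higher in the knockout, 15 to 20 Mb with 44 in treated knockout and 11 in treated wild type (5.15, 2.62 to 11.1), where 26.3% of all windows were. The other 3 were lower, where 48.9% of all windows were: 75 to 80 Mb with 29 in treated knockout and 110 in treated wild type (0.34, 0.217 to 0.515), 60 to 65 Mb with 39 in treated knockout and 127 in treated wild type (0.396, 0.269 to 0.571) and 45 to 50 Mb with 23 in treated knockout and 63 in treated wild type (0.47, 0.278 to 0.769). Relative to the chromosome's own intervals, 1 window passed and it was higher in the knockout. With 1 Mb windows 7 of 17 passed, against 82.5% in the genome, 1 of them higher against 33% and 6 lower against 49.5%. By called peaks the 45 to 50 Mb ratio was 0.604 (0.342 to 1.04). The windows next highest by ratio were 40 to 45 Mb with 13 in treated knockout and 21 in treated wild type (0.798) and 70 to 75 Mb with 52 in treated knockout and 92 in treated wild type (0.728, 0.508 to 1.03), both under 2-fold. Among peaks at or above the median maximum of their list, 70 to 75 Mb went past 2-fold, at 0.427 (0.23 to 0.757).

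Between the untreated lists no examined window differed 2-fold. Of 11 windows on chromosome 11, 0 passed 2-fold, against 20.7% of 150 in the genome, and with 1 Mb windows 0 of 21 passed, against 14.7%. The ratios of knockout over wild type were highest at 20 to 25 Mb with 30 in knockout and 23 in wild type (1.6, 0.896 to 2.88), at 15 to 20 Mb with 104 in knockout and 126 in wild type (1.01) and at 30 to 35 Mb with 20 in knockout and 27 in wild type (0.906). They were lowest at 60 to 65 Mb with 93 in knockout and 155 in wild type (0.734, 0.561 to 0.955), at 75 to 80 Mb with 44 in knockout and 72 in wild type (0.747) and at 45 to 50 Mb with 61 in knockout and 99 in wild type (0.754). On whole lists the ratios thus lay between 0.734 and 1.6. The 20 to 25 Mb ratio went past 2-fold with lists of equal length, at 3.25 (1 to 13.7), and among peaks at or above the median maximum, at 4.27 (1.43 to 17.2). From 95 to 105 Mb, where each 5 Mb window held fewer than 20 intervals, there were 12 intervals in treated knockout, 2 in treated wild type, 23 in untreated knockout and 11 in untreated wild type, and the untreated ratio of list shares was 2.56 (1.2 to 5.81). It was 1.79 (0.836 to 4.06) by called peaks, 6 (1.34 to 55.2) with lists of equal length and 4.56 (1.3 to 24.4) among peaks at or above the median maximum.

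Between treated and untreated wild type, 4 of 11 windows passed 2-fold, against 64.2% of 179 in the genome. One was higher under osimertinib, 75 to 80 Mb with 110 in treated and 72 in untreated cells (2.42, 1.78 to 3.3), where 31.3% of all windows were. The 3 lower windows, where 33% of all windows were, were 20 to 25 Mb with 0 in treated and 23 in untreated cells (upper bound 0.275), 15 to 20 Mb with 11 in treated and 126 in untreated cells (0.138, 0.0673 to 0.256) and 35 to 40 Mb with 2 in treated and 20 in untreated cells (0.158, 0.0179 to 0.652). Of the 110 treated wild-type intervals at 75 to 80 Mb, 55 lay beyond 77 Mb. The next highest ratios did not pass: 60 to 65 Mb with 127 in treated and 155 in untreated cells had a ratio of 1.3 (1.02 to 1.65) and 55 to 60 Mb, with 14 in treated and 21 in untreated cells, a ratio of 1.06. With 1 Mb windows 7 of 24 passed, against 67.1% in the genome, 3 of them higher against 29.6% and 4 lower against 37.5%. The split of 1 higher and 3 lower became 0 higher and 5 lower by number of intervals, and 2 higher and 1 lower with windows shifted by 2.5 Mb. The 35 to 40 Mb ratio was 0.5 (0.00847 to 9.6) with lists of equal length.

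Between treated and untreated knockout, 1 of 9 windows passed, against 12.8% of 109 in the genome. It was 20 to 25 Mb with 8 in treated and 30 in untreated cells (0.445, 0.176 to 0.993), lower under osimertinib as were 9.17% of all windows, while 0 were higher, against 3.67%. By called peaks 0 passed, and the ratio of that window was 0.544 (0.215 to 1.21). With 1 Mb windows 1 of 14 passed, against 13.3%, and it was lower, against 10.1%, while 0 were higher, against 3.16%. That window was 63 to 64 Mb, with 5 in treated and 24 in untreated cells. The next lowest were 40 to 45 Mb with 13 in treated and 41 in untreated cells (0.529, 0.26 to 1.01) and 45 to 50 Mb with 23 in treated and 61 in untreated cells (0.629, 0.371 to 1.03). Among peaks at or above the median maximum these were past 2-fold, at 0.193 (0.0377 to 0.621) and 0.368 (0.149 to 0.794). The highest were 75 to 80 Mb with 29 in treated and 44 in untreated cells (1.1, 0.663 to 1.8), 65 to 70 Mb with 71 in treated and 125 in untreated cells (0.947) and 70 to 75 Mb with 52 in treated and 112 in untreated cells (0.774). On whole lists, in none of the 4 comparisons did 5 Mb windows of chromosome 11 pass more often than windows of the whole genome. The comparisons share lists and are not independent of each other.

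**Figure D3:**
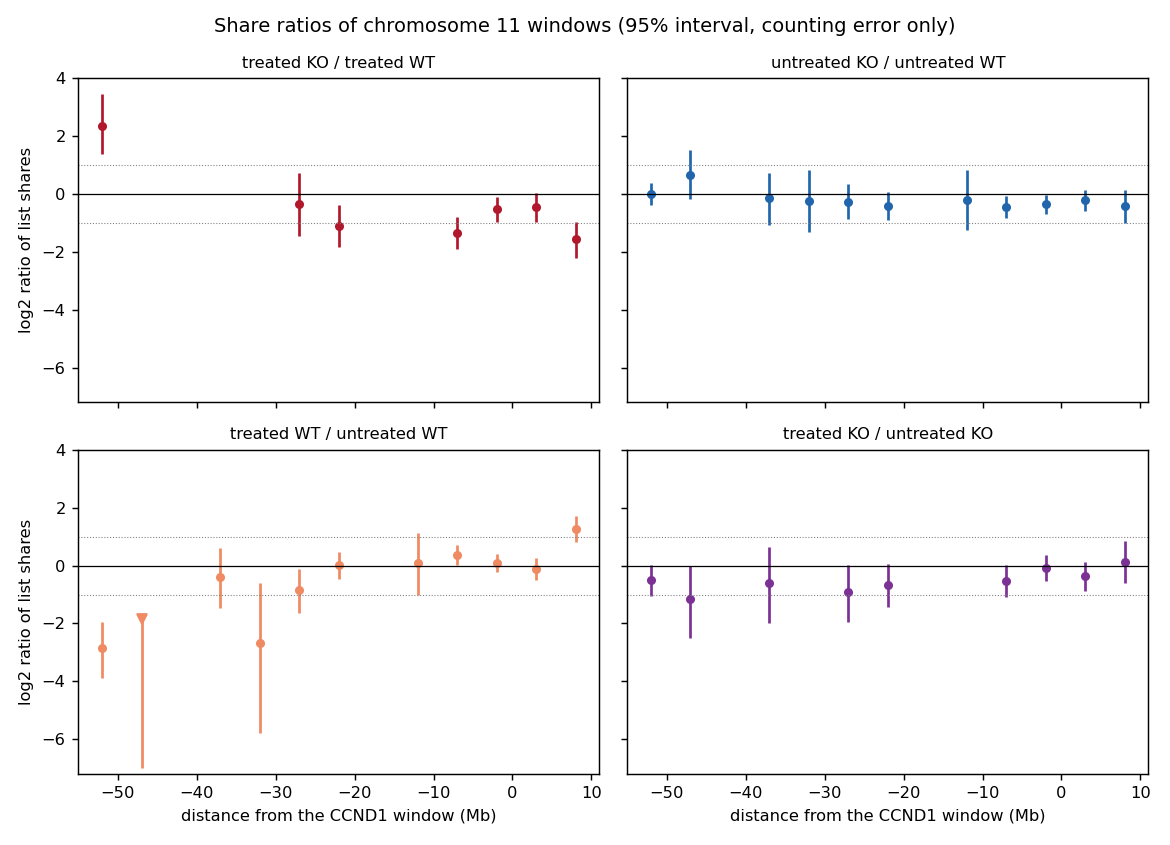
Ratio of list shares on a log2 scale for each examined 5 Mb window of chromosome 11, against its distance in Mb from the CCND1 window, for the 4 comparisons, with exact 95% intervals as bars. Dotted lines mark 2-fold, and a triangle marks the upper bound where the upper list had 0 intervals. In the treated against untreated wild-type panel, 15 to 20 Mb lies at 0.138, and 20 to 25 Mb, with 0 treated intervals, has the triangle. The last window of that panel rises to 2.42.

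At the level of single positions, few intervals recurred between lists. An interval had a counterpart where the other list held one that overlapped it by at least 1 bp. On chromosome 11, 15.1% of treated knockout intervals (11.3 to 19.6) had a counterpart in treated wild type, and 7.49% of treated wild-type intervals (5.51 to 9.89) had one in treated knockout. Over the whole lists these shares were 13.4% of treated knockout and 10.5% of treated wild-type intervals. Between the untreated lists they were 38.5% of knockout intervals (34.9 to 42.3) and 26.1% of wild-type intervals (23.4 to 29) on chromosome 11, against 53.7% of knockout and 35.1% of wild-type intervals over the whole lists. Both shares were higher between the untreated lists than between the treated lists, but untreated intervals were wider, and wider intervals overlap more readily. Among intervals of up to 1500 bp the knockout shares were 13.4% in treated cells (9.49 to 18.3) and 29.2% in untreated cells (24.2 to 34.6). The wild-type shares at that width were 5.98% in treated cells (4.01 to 8.53) and 8.62% in untreated cells (4.21 to 15.3), whose intervals overlapped. Only the counted intervals were limited in width, while the other list kept all its intervals. These shares therefore cannot separate width or list length from treatment.

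Between treated and untreated cells, the share for the whole of chromosome 11 lay above the rest of the genome in wild type and below it in the knockout, and in wild type this turned round in dense windows. In wild type, 34.8% of treated intervals (31 to 38.7) and 19.2% of untreated intervals (16.8 to 21.9) on chromosome 11 had a counterpart, against 28.3% of treated (27.4 to 29.2) and 14.6% of untreated ones (14 to 15.1) in the rest of the genome. Over the whole lists the shares were 28.7% of treated and 14.8% of untreated wild-type intervals. In 1 Mb windows with 40 or more intervals of the other list, the treated wild-type share was 38.5% on chromosome 11 (32.2 to 45.1) and 65% elsewhere (63.1 to 67), and the untreated share was 18.6% on chromosome 11 (9.69 to 30.9) and 39.1% elsewhere (36.9 to 41.4). In windows with 20 to 39 the treated share was 50% on chromosome 11 (42.7 to 57.3) and 33.6% elsewhere (31 to 36.3). In the knockout, 23.3% of treated intervals (18.7 to 28.4) and 10.2% of untreated intervals (8.02 to 12.7) had one, against 44.5% of treated (43.4 to 45.7) and 24.1% of untreated ones (23.4 to 24.9) in the rest of the genome. Over the whole lists the shares were 43.7% of treated and 23.4% of untreated knockout intervals. In the rest of the genome counterparts were more frequent where the other list was denser. On chromosome 11 this did not always hold, as the treated wild-type shares of 50% and 38.5% above show. Chromosome 11 had no untreated knockout interval in a 1 Mb window with 40 or more treated knockout intervals. In windows with 1 to 9 of them the shares were 7.47% on chromosome 11 (4.49 to 11.5) and 7.35% elsewhere (6.44 to 8.34). In windows with 10 to 19 they were 11.1% on chromosome 11 (7.73 to 15.3) and 15% elsewhere (13.2 to 16.9), and in windows with 20 to 39 they were 15.3% on chromosome 11 (9.58 to 22.6) and 22.9% elsewhere (21 to 24.8). Treated knockout intervals were classed likewise by untreated knockout intervals in the same 1 Mb window. On chromosome 11 and elsewhere their shares were 23.8% and 15.6% with 1 to 9, and 15.2% and 23.9% with 10 to 19. They were 23% (17.1 to 29.9) and 34.5% with 20 to 39, and 52% (31.3 to 72.2) and 56.7% with 40 or more. That densest class held 25 of 305 treated knockout intervals on chromosome 11 and 4556 of 7188 elsewhere. Set among the 17 chromosomes with at least 100 untreated knockout intervals, chromosome 11 ranked 12, in a range from 4.76% to 51%. Among the 16 chromosomes with at least 100 treated wild-type intervals it ranked 7 for the share found in untreated wild type, so neither value was at an end of its range.

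**Figure D4:**
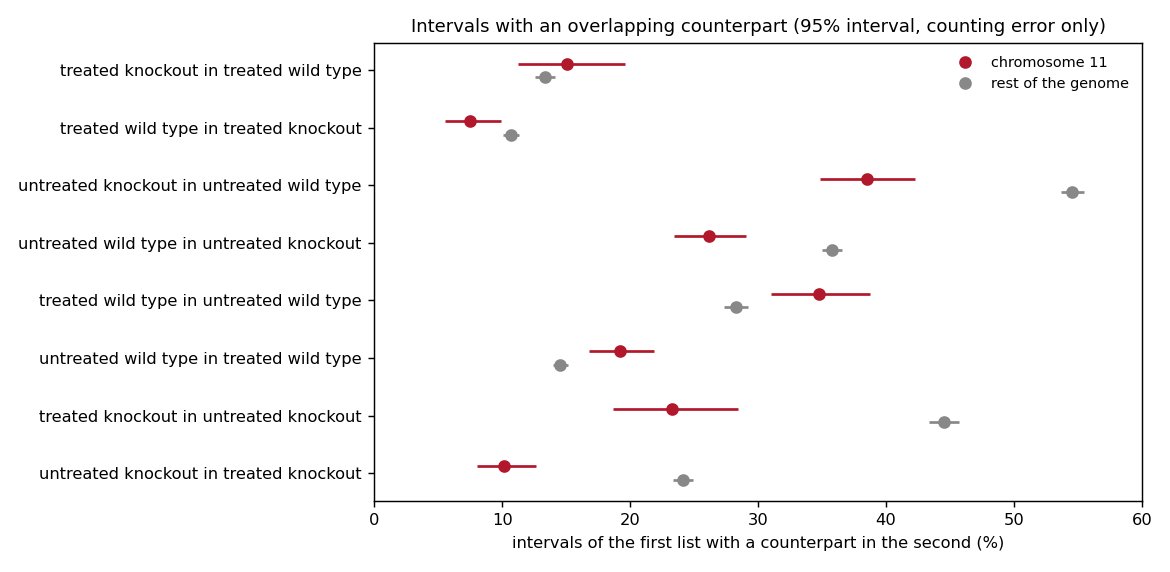
Percent of the intervals of the first named list that overlapped an interval of the second by at least 1 bp, on chromosome 11 and in the rest of the genome, with 95% Clopper-Pearson intervals. In the 2 lowest rows, which compare treated with untreated knockout, chromosome 11 lies at 23.3% and 10.2% and the rest of the genome at 44.5% and 24.1%.

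Joining overlapping intervals of the 4 lists gave 1843 positions on chromosome 11. Of these, 1354 (73.5%) were occupied in 1 list, 363 in 2, 103 in 3 and 23 (1.25%) in 4. In the whole genome 72.9% of 29197 positions were occupied in 1 list and 2.29% in 4. Treated knockout alone held 129 positions (7%, against 7.56% in the whole genome) and treated wild type alone 331 (18% against 21.4%). Untreated knockout alone held 350 (19% against 16.8%) and untreated wild type alone 544 (29.5% against 27.1%). The largest shared class was that of both untreated lists, with 150 positions (8.14%, against 8.25% in the whole genome). Treated and untreated wild type followed with 100 (5.43% against 3.25%). Treated and untreated knockout shared 26 positions held by no other list (1.41% against 1.4%). Of the 23 positions in the 4 lists, 16 lay between 61 and 77 Mb and 5 between 17 and 22 Mb. Of each list's chromosome 11 intervals, 52 to 65.4% lay between 61 and 77 Mb and 1.83 to 19% between 17 and 22 Mb.

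The 6 of these 23 with the highest mean of maximum over list median lay at 76921051 to 76927900, 19570551 to 19576500, 64452301 to 64456850, 45924801 to 45930350, 69704351 to 69709150 and 76908651 to 76914200. At the first, the maximum was 1 times the list median in treated knockout, 1.36 times in treated wild type, 1.2 times in untreated knockout and 1.17 times in untreated wild type. Together with the positions at 76914301 to 76920600 and 76883701 to 76889250, 4 of the 23 lay between 76883701 and 76927900. These were not all separate peaks. In treated wild type, intervals starting at 76912951, 76916901, 76921051 and 76926851 had the same maximum of 1.36 times the list median. The one at 76916901 came from a called peak split into 4 intervals. Its highest point, at 76914401 to 76914450, lay outside the first position. None of the 23 lay beyond 77 Mb.

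Peaks on chromosome 11 were of modest height. The largest maximum was 1.63 times the list median in treated knockout, 1.73 times in treated wild type, 2 times in untreated knockout and 1.75 times in untreated wild type, whereas the largest elsewhere in each list was between 193 and 251 times the median. Intervals of at least 1.5 times the median made up 0.656% of those on chromosome 11 in treated knockout, 0.499% in treated wild type, 4.36% in untreated knockout and 0.206% in untreated wild type. In the rest of each list the shares were 9.96% in treated knockout, 5.37% in treated wild type, 9.67% in untreated knockout and 7.71% in untreated wild type. A maximum is that of the whole called peak and can lie outside the interval printed. Maxima also rose in coarse steps that differed between lists. The largest on chromosome 11 was 13 steps in treated knockout, 19 in treated wild type, 10 in untreated knockout and 21 in untreated wild type. The cut at 1.5 times the median is thus not equally fine in the 4 lists, and heights compare only roughly between them.

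Some of the highest intervals recurred between lists and others were found in 1 list. In treated knockout the next after 51572201 to 51574350 were at 19478951 to 19480750 (1.63 times the list median) and 19617551 to 19618650 (1.38 times). In treated wild type the highest were at 76876801 to 76878500 (1.73 times) and 192451 to 193350 (1.64 times), followed by the one in the CCND1 window. In untreated knockout they were at 19478601 to 19482100, 51572001 to 51574300 and 44598601 to 44600750, each at 2 times. In untreated wild type they were at 51571951 to 51574400 (1.75 times), 19297351 to 19300800 (1.58 times) and 19366101 to 19371700 (1.42 times). The position at 19478601 to 19482100 was occupied in both knockout lists and in untreated wild type, and not in treated wild type. The intervals at 19617551 to 19618650 in treated knockout and at 44598601 to 44600750 in untreated knockout overlapped none of the other lists.

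Widths followed the list rather than the chromosome. The median width on chromosome 11 was 1100 bp in treated knockout (interquartile range 650 to 1350), 1200 bp in treated wild type (900 to 1450), 1600 bp in untreated knockout (1200 to 2050) and 2500 bp in untreated wild type (2000 to 3300). In the rest of each list it was 1150 bp in treated knockout, 1200 bp in treated wild type, 1700 bp in untreated knockout and 2600 bp in untreated wild type. The longest interval of treated knockout was 3500 bp, at 18721501 to 18725000, followed by 76836901 to 76839950 and 64486651 to 64489500. That of treated wild type was 4000 bp, at 66457701 to 66461700, followed by 76916901 to 76920600 and 72408051 to 72411700. That of untreated knockout was 5400 bp, at 66646251 to 66651650, followed by 44646201 to 44651200 and 19531651 to 19536650. That of untreated wild type was 14250 bp, at 18753401 to 18767650. The next longest in untreated wild type were 75133501 to 75145350 and the one in the CCND1 window.

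The lists also differed in how far peaks were split. Intervals that shared a called peak with another made up 19.7% of those on chromosome 11 in treated knockout, 54.7% in treated wild type, 4.07% in untreated knockout and 53.2% in untreated wild type. Over the whole lists these shares were 33.7% in treated knockout, 49.9% in treated wild type, 3.34% in untreated knockout and 50% in untreated wild type. Counting each called peak once gave 274 peaks in treated knockout, 397 in treated wild type, 674 in untreated knockout and 663 in untreated wild type. Untreated knockout and untreated wild type were thus nearly equal by number of called peaks, although untreated knockout held 688 intervals and untreated wild type 972. Their ratio of list shares hardly changed, at 0.868 (0.779 to 0.968) by called peaks and 0.866 (0.784 to 0.956) by intervals. The median distance between neighbouring midpoints was 36.8 kb in treated knockout, 16.4 kb in treated wild type, 18.2 kb in untreated knockout and 12 kb in untreated wild type.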

How the data were processed

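Per the labels, 8 of the 16 samples carried the TOP2B antibody and 8 the H2A antibody; the H2A samples were not analysed here. Reads were handled on GRCh37 with Bowtie2 2.4.2, SAMtools 1.16, bedtools 2.30, deepTools 3.5.1, Trimmomatic, FastQC and SEACR, per the submitters' processing notes. For peak calling and for intersecting the libraries, settings were not given in the sources used here. Each deposited list gives intervals, the area of the called peak as a deposited score (signal summed over its bases) and its maximum as a deposited signal (highest coverage). The scaling of that coverage is not given and library depth is unknown, so maxima were divided by the median of their list. A called peak was taken as the intervals sharing area, maximum and region of the maximum. Counts, shares, ratios and overlaps were computed with Python 3.11.15, pandas 2.3.3 and SciPy 1.17.1, and checked on simulated lists. Positions count from 1. With 1 list per condition no test between conditions was run. Intervals were not assigned to genes, and the planned gene list was not used, because no GRCh37 annotation was at hand. Named windows were, per comparison, the 3 highest and 3 lowest ratios among windows with at least 20 intervals and the 3 fullest per list; named intervals were the 3 highest and 3 longest per list and the 6 highest positions in the 4 lists. The chromosome, windows and rules were chosen with earlier results of these data known. Alternatives covered called peaks, stricter peaks, equal list lengths, window size, denominators and overlap.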

Additional observations from a re-analysis of the deposited data

Results flagged for a closer look

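Among 5 Mb windows with at least 20 intervals in 1 list of both comparisons, there were 3 in which the ratio of list shares, treated over untreated, lay on opposite sides of 1 in the 2 genotypes, which is what drew attention to them; with 1 list per condition the difference between genotypes was not tested. At 60 to 65 Mb knockout cells had a ratio of 0.699 (0.468 to 1.03), and wild-type cells 1.3 (1.02 to 1.65). At 45 to 50 Mb knockout cells had 0.629 (0.371 to 1.03), and wild-type cells 1.01 (0.722 to 1.4). At 65 to 70 Mb, the window that contains the CCND1 region, knockout cells had 0.947 (0.698 to 1.28), and wild-type cells 1.07 (0.848 to 1.34). In each window the counting intervals of the 2 genotypes overlapped. The 65 to 70 Mb knockout ratio was above 1 in 3 other settings, at 1.09 by called peaks, 1.15 with lists of equal length and 1.28 as a share of the chromosome's own intervals, and it was 0.568 (0.349 to 0.897) among peaks at or above the median maximum. At 45 to 50 Mb the knockout ratio was 0.368 (0.149 to 0.794) in that last setting and 0.92 (0.499 to 1.69) with lists of equal length. At 55 to 60 Mb, below that minimum in the knockout, the ratio was 0.333 (0.0619 to 1.18) in knockout cells and 1.06 (0.496 to 2.18) in wild-type cells.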

How the results depend on the processing

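The whole chromosome's share ratio was the least stable result. For treated knockout over treated wild type it was 0.758 by called peaks, 0.474 with peaks at or above the median maximum, 0.565 by summed length and 1.18 without the 20 densest windows, where it reversed. For untreated knockout over untreated wild type it was 0.762 with lists of equal length. Without the densest windows it was 1.02, with an interval that included 1 (0.922 to 1.12). For treated over untreated wild type it was 0.735 without the densest windows, and for treated over untreated knockout 0.524 with stricter peaks, 0.936 with equal lengths and 0.849 without the densest windows. The shifts without the densest windows follow from the changed denominator. The cause of the other shifts was not tested. The number of windows past 2-fold moved to 7 with 1 Mb windows both for treated knockout over treated wild type and for treated over untreated wild type. It moved to 1 for the 2 treated lists relative to the chromosome's own intervals, and to 1 for the untreated lists with a minimum of 10 intervals. For treated over untreated knockout it was 2 with shifted windows, 3 with a minimum of 10, 0 by called peaks, 0 relative to the chromosome's own intervals and 7 by number of intervals without regard to list length. The shares with a counterpart, for treated wild type in treated knockout, untreated wild type in untreated knockout, untreated wild type in treated wild type and untreated knockout in treated knockout, were 2.33, 7.61, 4.22 and 3.63% with an overlap of 50% of both intervals, 24.5, 53.3, 39.6 and 28.6% within 5 kb, and 3.32, 20.6, 13.53 and 4.48% with stricter peaks. The ratios of the CCND1 window stayed within their counting intervals under the 4 alternatives run for each. In 1 of these, the wider window from 65 to 70 Mb, both intervals of knockout over wild type lay below 1. The ratios were 0.693 (0.512 to 0.932) under treatment and 0.78 (0.618 to 0.981) without it. Of the other values, for single windows, blocks, runs and counterparts, 129 stayed within their counting interval or kept their position and 44 moved. No ratio whose interval lay to 1 side of 1 turned to the other side, but ratios nearer 1 did, and intervals came to include 1. Among peaks at or above the median maximum, treated over untreated knockout was 0.539 (0.295 to 0.934) at 70 to 75 Mb, and treated knockout over treated wild type was 0.179 (0.0888 to 0.331) at 75 to 80 Mb. Joined over gaps of at most 0.5 Mb, the run around the CCND1 window ended at 73.1 Mb in treated knockout, 71.2 Mb in treated wild type, 77.3 Mb in untreated knockout and 73.7 Mb in untreated wild type, so its outer end depends on that rule; over gaps of up to 2 Mb it ended at 77.3, 80.2, 78.8 and 77.1 Mb in the same lists. No paired analysis was possible because each condition has 1 list made from both replicates, and for the same reason no replicate could be left out. The depth of the libraries is unknown, and the precision of a ratio is set by the counts of its window, so that windows with few intervals have the widest intervals.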
